A study of Mus musculus with 12 samples.

Results

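The interleukin genes examined here are all 79 probe sets whose gene symbol begins with Il and a digit, out of 23185 probe sets of the array table that carry a gene symbol. They cover interleukins, interleukin receptor chains and their natural antagonists, and each probe set stands for a different gene. Measurements were made in abdominal fat RNA from 12 mice aged 12 weeks of a single background, BKS.Cg-Dock7m +/+ Leprdb/J, in which mutation of the leptin receptor causes obesity and diabetes. All mice were given adenoviruses that carry short hairpin RNAs (shRNAs), which lower the messenger RNA they match, at a total of 4e9 plaque-forming units, and the fat was frozen 1 week later. The control group received 4e9 units of control shRNA virus. The LCN13 group received 2e9 units of LCN13 shRNA virus plus 2e9 of the control virus, the TSC22D4 group 2e9 of TSC22D4 shRNA virus plus 2e9 of control virus, while in the combined group the 2 gene-directed viruses were given at 2e9 each, without any control virus. A gene-directed virus therefore always came with less control virus. The effects of these 2 changes cannot be told apart against the control group, nor between the combined group and a single shRNA group. The study treated 28 mice, 7 in each group, and arrays were run for 3 of each 7, selected as representative according to the labels rather than at random. The design allows each shRNA group to be set against control virus, the combined group against each single shRNA, and the groups against each other.

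Interleukins are secreted proteins through which leukocytes, and in fat also adipocytes, stromal and vascular cells, signal to each other. Most receptor chains, among them those that share the common gamma chain, gp130 or an IL-10 receptor chain, act through Janus kinases (JAKs) and STAT transcription factors, whereas receptors of the IL-1 family act through the adaptor MyD88 and NF-kB. Several members are inhibitors in their own right: IL-1 receptor antagonist blocks the IL-1 receptor, the decoy receptor IL1R2 captures IL-1, and IL-18 binding protein captures IL-18. In obese fat these signals are known chiefly for their exchange between adipocytes and macrophages.

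Signal is given on the log2 scale of the deposited values, where a difference of 1 is a doubling. The 12 arrays had a common median of 6.31 and ran from 5.62 to 14.38. Columns sorted by value differed by at most 0.00188. Within-group correlations across probe sets lay between 0.994 and 0.998. All 9 adipocyte markers and all 9 macrophage markers lay above the array median on all 12 arrays, which fits the labelled tissue. As a check of the labels, the targeted genes were examined first. Tsc22d4 ran from 7.56 to 7.88 over the 12 arrays and changed by -0.01 with the TSC22D4 shRNA (limma adjusted p = 0.989) and -0.07 with both (adjusted p = 0.888). Lcn13, listed as Obp2a, ran from 5.71 to 5.79, near the lower end of the scale. The arrays thus do not show a knockdown of either target in fat, and the groups are named by their labels alone. All adjusted p-values below come from limma, with Benjamini-Hochberg adjustment over all 23185 genes of a comparison, and a gene is called changed at an adjusted p under 0.05. Each array stands for a different animal, per the labels, so the replicate error covers differences between animals.

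Most ligands gave a signal below the array median, while the receptor chains were nearly evenly split. Of the 79 genes, 29 (36.7%) had a mean above the array median, against 51.5% of all 23185 genes. Of 40 ligands and soluble antagonists 9 had such a mean, and of 37 receptor chains 19 did, a difference that was not tested. The 2 members in neither class are Il1bos, an antisense transcript of Il1b, and Il4i1b. The same 29 genes lay above the median on all 12 arrays, 46 lay below it on all 12, and 4 crossed it: Il18r1 was above on 2 arrays, Il10 on 3, Il17re on 1 and Il13 on 1. Genes above the median had a median range of 0.58 over the 12 arrays, and those at or below it a median range of 0.09. A low value may reflect little RNA or a poorly responding probe set, and brightness of different probe sets does not order the genes by RNA amount.

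Receptor chains with a signal far above the array median included Il6st, which codes for gp130, the signalling chain of the IL-6 family, at 5.86 above it. Il10rb, the shared second chain of the IL-10 family receptors, lay 5.28 above it, and Il7r, the IL-7 receptor chain, 4.84 above it. Il1rn, the IL-1 receptor antagonist, lay 4.02 above the median and Il6ra, the IL-6 binding chain, 4.01 above it. The receptors Il13ra1, Il1r1, Il4ra and Il10ra lay 3.92, 3.87, 3.20 and 3.15 above it. The inflammatory ligands Il1a, Il1b and Il6 lay below the median on all 12 arrays: Il1b lay at -0.35, Il1a at -0.45 and Il6 at -0.52 relative to the median. Il6 moved by only 0.0771 between its lowest array, 5.75, and its highest, 5.82. Ligands with a mean above the median included Il15 (IL-15, a growth factor of natural killer (NK) and memory T cells) at 0.75, Il18 (an IL-1 family cytokine) at 0.31, Il33 (an alarmin of the same family) at 0.45, Il34 (a ligand of the CSF1 receptor) at 1.88 and Il16 (a chemoattractant for CD4+ cells) at 1.15.

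**Figure D1:**
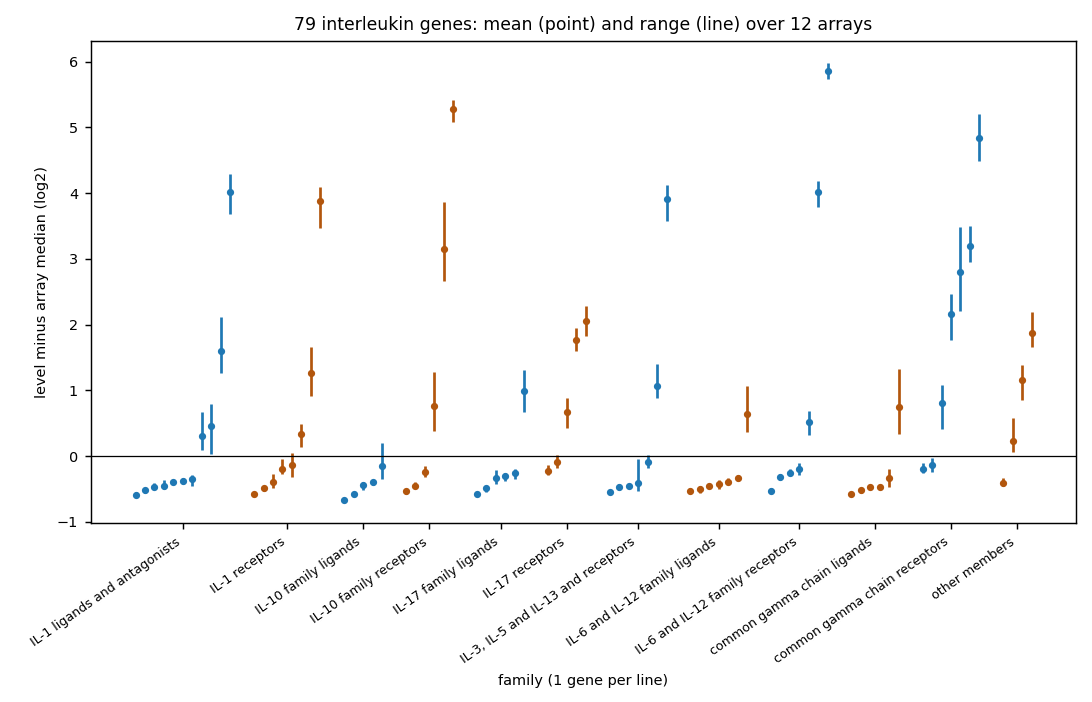
Level of each of the 79 interleukin genes relative to the array median (log2, vertical axis), grouped by family along the horizontal axis; a point is the mean of 12 arrays, a line the lowest to highest array, and the 2 colours only separate neighbouring families. Il6st lies at 5.86, and most ligands lie just below the line at 0. The median range was 0.58 for genes above the line and 0.09 for the others, among which Il10 had a range of 0.55.

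Relative to control virus, 4 interleukin genes fell in at least 1 comparison and none was called higher. They were Il15, Il18bp (IL-18 binding protein), Il10ra (the ligand-binding chain of the IL-10 receptor) and Il4ra (the receptor chain shared by IL-4 and IL-13). Calls over all 23185 genes were also mostly falls. With the LCN13 shRNA, the TSC22D4 shRNA and both, 241, 204 and 238 genes were called lower and 92, 68 and 73 higher. With the LCN13 shRNA, 3 of 79 fell (Il15, Il18bp and Il10ra), where 1.44% of all genes tested were called. With both shRNAs, 3 of 79 fell (Il15, Il18bp and Il4ra), where 1.34% of all genes were called. With the TSC22D4 shRNA alone 0 of 79 passed limma's test, where 1.17% of all genes were called. At an unadjusted p under 0.05 there were 11 of the 79, beside 2739 of all 23185 genes. With the mean of the 3 shRNA groups set against control, all 4 genes fell, where 1.66% of all genes were called. A moderated F test over the 4 groups called 1 member, Il15, at an adjusted p of 0.0292, where 1.61% of all genes were called. The comparisons with control share the same 3 control arrays, so a high or low control array enters each of them.

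As a group the interleukin genes had a median change close to 0. The median change of the 79 genes was -0.0056 with the LCN13 shRNA, -0.0037 with the TSC22D4 shRNA and -0.0044 with both, against 0.0040, -0.0022 and 0.0015 over all genes. Changes lay below 0 for 44, 45 and 46 of the 79 genes, beside 10632, 12147 and 11192 of all 23185 genes. The estimated change exceeded 0.25 in either direction for 11 (13.9%), 8 (10.1%) and 7 (8.86%) of them, against 6.27%, 5.87% and 5.28% of all genes. The 4 genes that fell all belong to the 29 whose mean signal lay above the array median. Those 29 had median changes of -0.0014, -0.0849 and -0.0502, with 15, 20 and 20 of them below 0. The other 50, which varied little, had medians of -0.0059, 0.0021 and -0.0015 and weigh most in the median of all 79. The difference between the 2 sets was not tested.

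Il15 (probe set 16168_at) read 7.33, 7.63 and 7.45 on the control arrays, 6.99, 6.65 and 6.83 with the LCN13 shRNA, 6.97, 6.99 and 7.13 with the TSC22D4 shRNA, and 6.90, 6.95 and 6.92 with both. All 9 shRNA arrays lay below all 3 controls. The group means were 7.47 ± 0.15 (SD, n = 3) in controls, 6.82 ± 0.17 (n = 3), 7.03 ± 0.09 (n = 3) and 6.92 ± 0.03 (n = 3). With the LCN13 shRNA Il15 fell by 0.65 (SE 0.09, adjusted p = 0.00917), which is 36.1% lower, and this call held when any 1 of the 12 arrays was left out. With both shRNAs it fell by 0.54 (adjusted p = 0.0249), or 31.4%. With the TSC22D4 shRNA the change was -0.44 and missed the threshold (adjusted p = 0.0731), though it passed without LCN13 replicate 6 (0.0458). Over the 3 shRNA groups the fall was 0.54 (SE 0.08, adjusted p = 0.00651). The call with both shRNAs did not hold without control replicate 2 (adjusted p = 0.0734), control replicate 3 (0.0671) or combined replicates 13 (0.105), 14 (0.073) or 16 (0.0762), whereas that over the 3 shRNA groups held in all 12 such fits.

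Il18bp, the soluble inhibitor that captures IL-18 (probe set 16068_at), read 8.41, 8.43 and 8.10 in controls, 7.57, 7.96 and 7.73 with the LCN13 shRNA, 7.86, 7.88 and 7.92 with the TSC22D4 shRNA, and 7.75, 7.75 and 7.59 with both. Here too every shRNA array lay below every control, the narrowest gap being that between control replicate 3 and LCN13 replicate 6. It fell by 0.56 with the LCN13 shRNA (SE 0.11, adjusted p = 0.0394), by 0.62 with both (adjusted p = 0.0261) and by 0.54 over the 3 shRNA groups (adjusted p = 0.0161), which is 32.3%, 34.8% and 31.1% lower. The change with the TSC22D4 shRNA was -0.43 (adjusted p = 0.123). The LCN13 call is marginal: it passed without control replicate 3 or LCN13 replicate 6, and without any other single array the adjusted p rose to between 0.0515 and 0.142, at changes between -0.47 and -0.56. The call with both shRNAs did not hold without control replicates 1 (0.0704) or 2 (0.0979), TSC22D4 replicate 10 (0.0527) or combined replicates 13 (0.0836), 14 (0.0716) or 16 (0.0917), and that over the 3 groups not without control replicates 1 (0.0645) or 2 (0.0915).

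Il18, the cytokine it captures, had a lower mean in every shRNA group but was not called. It read 6.74, 6.97 and 6.92 in controls, 6.77, 6.42 and 6.39 with the LCN13 shRNA, 6.52, 6.44 and 6.55 with the TSC22D4 shRNA, and 6.57, 6.54 and 6.56 with both. LCN13 replicate 5, at 6.77, was the only shRNA array that reached into the control range. The changes were -0.35, -0.37 and -0.32 (adjusted p = 0.141, 0.127 and 0.198), and -0.35 over the 3 groups (adjusted p = 0.0671). Without LCN13 replicate 5 all 4 comparisons passed, at adjusted p of 0.0118, 0.0214, 0.0376 and 0.00459, with changes of -0.47, -0.37, -0.32 and -0.39. Leaving out that array was part of the routine of leaving out each in turn, and no label sets it apart.

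Il10ra (probe set 16154_at) read 9.76, 10.17 and 9.81 in controls, 9.26, 9.24 and 8.97 with the LCN13 shRNA, 9.58, 9.20 and 9.64 with the TSC22D4 shRNA, and 9.12, 9.44 and 9.29 with both. The groups did not overlap with control, and the TSC22D4 arrays were the nearest to it. Il10ra fell by 0.76 with the LCN13 shRNA (SE 0.15, adjusted p = 0.0463), 40.7% lower, and by 0.61 over the 3 groups (SE 0.12, adjusted p = 0.0452), 34.4% lower. Changes of -0.44 with the TSC22D4 shRNA (adjusted p = 0.268) and -0.63 with both (adjusted p = 0.0974) did not pass. These calls are the least firm of the set: the LCN13 call held only without TSC22D4 replicate 11, and without any other single array the adjusted p lay between 0.0522 and 0.141. The call over the 3 groups did not hold without any single array (0.0525 to 0.179), and the highest of these values came without control replicate 2. That array had both the highest Il10ra and the highest macrophage markers, whose mean over 9 genes relative to their 12-array mean was 0.29 there, -0.08 and 0.08 in the other controls, -0.10 to -0.09 with the LCN13 shRNA, -0.07 to 0.16 with the TSC22D4 shRNA and -0.13 to 0.04 with both. Of those 9 macrophage genes limma called 0 in any comparison with control, with 1, 1 and 2 at an unadjusted p under 0.05, and their part in the result was not tested. In bulk tissue, fewer cells of a type and less RNA per cell cannot be told apart.

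Il4ra (probe set 16190_at) read 9.63, 9.80 and 9.73 in controls, 9.49, 9.59 and 9.42 with the LCN13 shRNA, 9.46, 9.40 and 9.58 with the TSC22D4 shRNA, and 9.26, 9.31 and 9.45 with both. All 9 shRNA arrays were again below the controls, but the gap from the lowest control to the highest of them, LCN13 replicate 6, was only 0.04. It fell by 0.38 with both shRNAs (adjusted p = 0.0328), 23.0% lower, and by 0.28 over the 3 groups (SE 0.06, adjusted p = 0.0452), 17.6% lower. With the LCN13 shRNA the change was -0.22 (adjusted p = 0.20) and with the TSC22D4 shRNA -0.24 (adjusted p = 0.186). The call with both shRNAs did not hold without control replicates 2 (0.114) or 3 (0.0953), LCN13 replicate 5 (0.0614), TSC22D4 replicate 10 (0.0622) or combined replicates 13 (0.134) or 14 (0.113). That over the 3 groups held only without control replicate 1, LCN13 replicate 6, TSC22D4 replicate 12 or combined replicate 16, and otherwise the adjusted p lay between 0.0714 and 0.191.

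**Figure D2:**
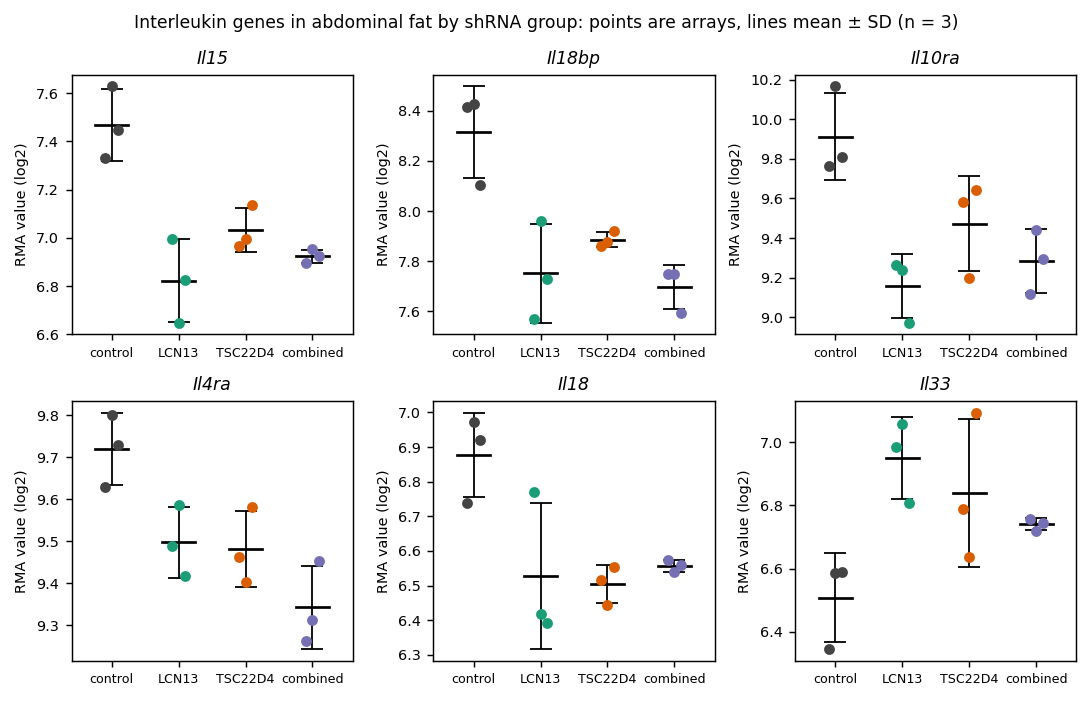
Deposited log2 value (vertical axis) of Il15, Il18bp, Il10ra, Il4ra, Il18 and Il33 on each of the 12 arrays by shRNA group (horizontal axis); points are arrays, lines the mean and SD of 3 arrays, and the vertical axes do not start at 0. The 3 control arrays lie above all 9 others for Il15, Il18bp, Il10ra and Il4ra, and below all 9 for Il33.

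Counted by separation alone, 11 of the 79 genes had all 3 LCN13 arrays below all 3 controls, where 6.93% of all genes did. With the TSC22D4 shRNA 11 did (8.38% of all genes) and with both shRNAs 9 did (7.22%). Those with all 9 shRNA arrays below all 3 controls were the 4 called genes, where 1.8% of all genes were so separated. In the opposite direction 7, 5 and 4 members had all 3 arrays above the controls (8.75%, 8.27% and 7.72% of all genes). A single member, Il33, had all 9 shRNA arrays above them, where 1.1% of all genes did.

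The common gamma chain cytokines and their receptors held Il15 and Il4ra. No probe set here carries the symbol of the common gamma chain itself, Il2rg, so it was not tested. Of the 6 ligands only Il15 had a mean above the array median. Il15ra, the chain that presents IL-15 to neighbouring cells, had a higher mean in each shRNA group, opposite in sign to its ligand. It read 8.51, 8.71 and 9.17 in controls, 8.98, 9.08 and 9.49 with the LCN13 shRNA, 8.87, 9.23 and 9.49 with the TSC22D4 shRNA, and 9.34, 9.79 and 8.65 with both. The groups overlapped widely, and its changes of 0.38, 0.40 and 0.46 did not pass (adjusted p = 0.668, 0.69 and 0.681). With the LCN13 shRNA the 95% interval of the change ran from -0.28 to 1.04. Il2rb, the signalling chain shared by the IL-2 and IL-15 receptors, read 7.39, 7.13 and 7.38 in controls and 6.99, 6.89 and 6.72 with the LCN13 shRNA, without overlap, and its change of -0.44 did not pass (adjusted p = 0.126). With the TSC22D4 shRNA it read 7.02, 7.36 and 7.33, and with both shRNAs 7.04, 7.19 and 6.96. NK cell markers, a list of 8 genes of which 3 lay above the array median on all arrays and 3 below it, ran on average from 0.04 to 0.18 in controls, -0.21 to -0.11 with the LCN13 shRNA, -0.01 to 0.16 with the TSC22D4 shRNA and -0.09 to 0.06 with both, relative to their 12-array mean. Of these 8, 1 was called lower with the LCN13 shRNA and with both, Klrk1, an activating receptor of NK cells. By limma 4, 2 and 3 of the 8 had an unadjusted p under 0.05 with the LCN13 shRNA, the TSC22D4 shRNA and both. The part of these markers in the values of Il15 and Il2rb was not tested. Il7r ran from 10.8 to 11.5 over all arrays and was called in no comparison.

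In the IL-1 family Il33 had a higher mean in every shRNA group and was not called. It read 6.35, 6.59 and 6.59 in controls, 6.98, 7.06 and 6.81 with the LCN13 shRNA, 6.79, 6.64 and 7.09 with the TSC22D4 shRNA, and 6.76, 6.72 and 6.75 with both. Although all 9 shRNA arrays exceeded the controls, the changes of 0.44, 0.33 and 0.23 did not pass (adjusted p = 0.125, 0.272 and 0.526), nor did that of 0.34 over the 3 groups (adjusted p = 0.151). Without TSC22D4 replicate 12 the change with the LCN13 shRNA passed (0.44, adjusted p = 0.049). Il33 in fat is known from stromal and mesothelial cells. Mesothelial markers, 10 genes, averaged 0.63 and 0.64 above their 12-array mean in LCN13 replicates 5 and 6 but -0.19 in LCN13 replicate 8, and from -0.37 to 0.06 elsewhere. The fibroblast markers averaged -0.28 to 0.01 in controls and 0.00 to 0.06 with the LCN13 shRNA. With the TSC22D4 shRNA they averaged -0.11 to 0.08, and with both 0.00 to 0.11. Limma called 0 genes of either list (with the LCN13 shRNA 4 mesothelial and 3 fibroblast genes had an unadjusted p under 0.05). The part of these cells in the Il33 values was not tested.

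Of 8 receptors of the IL-1 family 5 had a change above 0 over the 3 shRNA groups and limma called 0. At an unadjusted p under 0.05 there were 2 of the 8, beside 2663 of all 23185 genes. The IL-33 receptor gene Il1rl1 is not among the 8 and was not tested, since no probe set here carries its symbol. Il1r1, the signalling receptor for IL-1, read 9.78, 10.05 and 10.19 in controls and 10.39, 10.30 and 10.29 with the LCN13 shRNA, a change of 0.32 that did not pass (adjusted p = 0.257). Il1rl2, the IL-36 receptor, read 7.37, 7.47 and 7.22 in controls and 7.73, 7.97 and 7.48 with both shRNAs, a change of 0.37 (adjusted p = 0.282). The antagonist Il1rn read 10.24, 10.60 and 10.59 in controls and 10.37, 10.30 and 9.99 with the LCN13 shRNA, a change of -0.26 (adjusted p = 0.396), and the groups overlapped. Il1rap, the accessory chain of the IL-1 receptors, changed by -0.12, -0.08 and -0.04. For Il1a, Il1b, the decoy receptor Il1r2 and the IL-18 receptor chain Il18r1, all near or below the array median, the changes against control lay between -0.11 and 0.06. Over the 12 arrays the range was 0.15 for Il1a, 0.16 for Il1b, 0.21 for Il1r2 and 0.36 for Il18r1. At this level little can be read from the values.

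Among the IL-10 family, Il10 itself lay near the array median. It read 6.16, 6.32 and 6.50 in controls, 6.00, 5.95 and 6.08 with the LCN13 shRNA, 6.12, 6.19 and 6.34 with the TSC22D4 shRNA, and 6.01, 6.12 and 6.13 with both. The LCN13 and combined arrays lay below all controls, with changes of -0.32 (adjusted p = 0.139) and -0.24 (adjusted p = 0.306) that did not pass. Without control replicate 1 the first of these passed (-0.40, adjusted p = 0.0421). Il10rb, the partner chain of Il10ra, changed by -0.06, -0.04 and 0.00. Its 95% interval with the LCN13 shRNA, -0.27 to 0.16, does not reach the fall of Il10ra. Il20rb, a receptor chain for IL-19, IL-20 and IL-24, had its highest values in the TSC22D4 group. It read 6.72, 6.92 and 6.98 in controls, 6.69, 6.70 and 7.23 with the LCN13 shRNA, 7.53, 7.35 and 7.59 with the TSC22D4 shRNA, and 6.86, 6.97 and 7.37 with both. The TSC22D4 arrays lay above all controls, but the change of 0.61 did not pass (adjusted p = 0.162), nor did the difference from the LCN13 group, 0.61 (adjusted p = 0.113). Without LCN13 replicate 8, the highest array of that group, the difference passed (0.79, adjusted p = 0.0353).

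The IL-6 and IL-12 family showed small changes and no calls. Il6st read 12.17, 12.08 and 12.04 in controls and 12.18, 12.26 and 12.29 with the LCN13 shRNA, a change of 0.15 (adjusted p = 0.252). Il6ra read 10.36, 10.49 and 10.44 in controls and 10.18, 10.16 and 10.22 with the TSC22D4 shRNA, without overlap, a change of -0.24 (adjusted p = 0.366). Il27, a ligand subunit, changed by -0.10, -0.26 and -0.17, its receptor chain Il27ra by -0.04, 0.16 and 0.08, and Il12rb1, an IL-12 receptor chain, by 0.00, -0.01 and -0.04. Il6 changed by -0.02, 0.02 and -0.03, at a level where the arrays barely varied.

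Of the remaining receptors, Il17ra, the common chain of the IL-17 receptors, read 8.08, 8.12 and 8.12 in controls and 7.97, 7.91 and 8.01 with both shRNAs, a change of -0.14 (adjusted p = 0.263). Il13ra1, a partner chain of Il4ra, changed by 0.19, 0.00 and -0.11. Il17rb, the IL-25 receptor chain, had the lowest adjusted p among members with a higher mean in the LCN13 group, at 6.18, 6.15 and 6.18 with the LCN13 shRNA against 6.02, 6.03 and 6.08 in controls. Its change of 0.13 did not pass (adjusted p = 0.0597), and its level lay below the array median on all 12 arrays. Il34 read 8.30, 8.06 and 8.33 in controls, 8.46, 8.50 and 8.25 with the LCN13 shRNA, 7.97, 8.04 and 8.01 with the TSC22D4 shRNA, and 8.23, 7.98 and 8.13 with both. The single shRNA groups lay on opposite sides of control, at 0.17 and -0.23, and the difference between them of -0.40 did not pass (adjusted p = 0.0736), though it did without LCN13 replicate 8 (-0.47, adjusted p = 0.0372). Il16 changed by 0.04, -0.08 and -0.02. Il17rb, Il17re, Il13, Il4, Il19, Il1bos and Il4i1b lie outside the rule that chose the named genes and were picked after their values were seen.

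**Figure D3:**
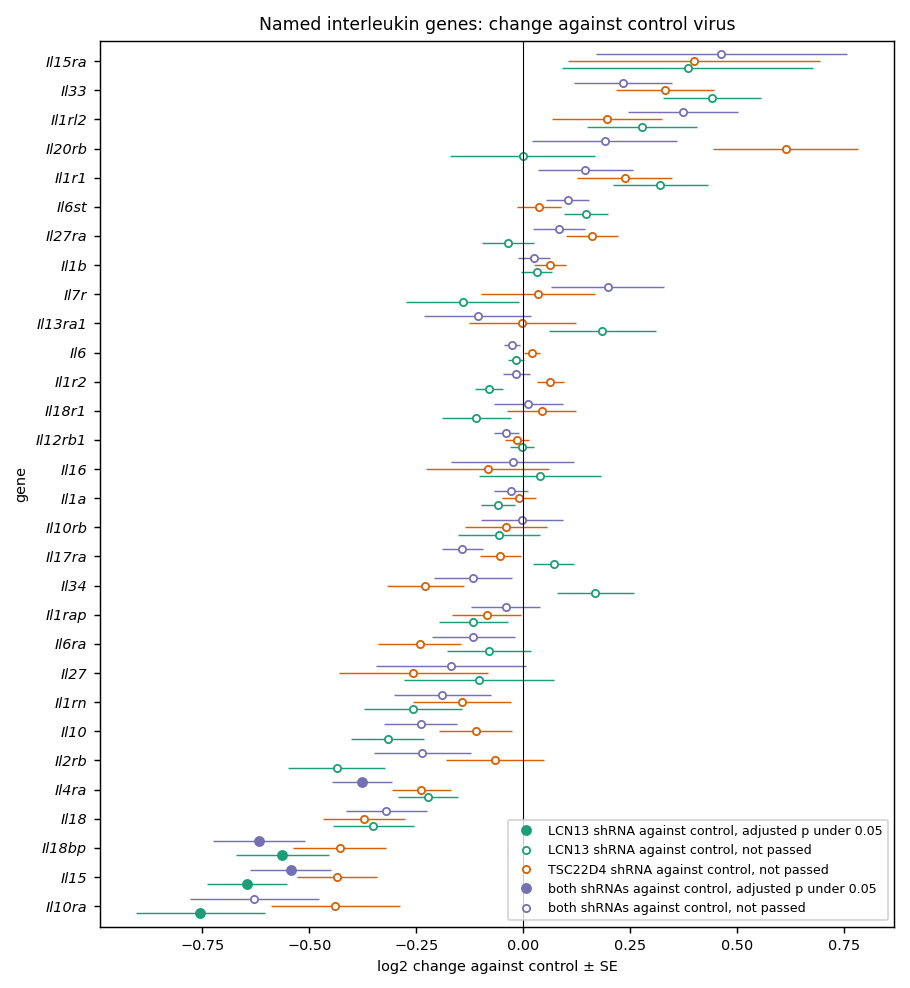
Change against control virus (log2, horizontal axis) of the 30 named interleukin genes (vertical axis) with the LCN13 shRNA, the TSC22D4 shRNA and both; points are limma estimates over 3 arrays per group, lines are ± 1 SE, and filled points passed at an adjusted p under 0.05. The 6 filled points all lie left of 0 and belong to Il10ra, Il15, Il18bp and Il4ra.

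Between the shRNA groups no interleukin gene was called. The combined group against the LCN13 group gave 0 of 79, where 0.00863% of all genes were called by limma. At an unadjusted p under 0.05 there were 6 of 79, beside 2477 of all 23185 genes. Against the TSC22D4 group it gave 0 of 79, where 0% of all genes were called. Here 6 of 79 had an unadjusted p under 0.05, beside 1602 of all genes. The TSC22D4 group against the LCN13 group gave 0 of 79, where 1.03% of all genes were called. At an unadjusted p under 0.05 there were 15 of 79, beside 4101 of all 23185 genes. The interaction is the change from the LCN13 group to the combined group, less the change from the control group to the TSC22D4 group. In both changes TSC22D4 virus took the place of control virus. It gave 0 of 79, where 0.397% of all genes were called. At an unadjusted p under 0.05 there were 10 of 79, beside 1641 of all 23185 genes. For Il15 the TSC22D4 group lay 0.21 above the LCN13 group (95% interval 0.00 to 0.42), the combined group 0.10 above the LCN13 group (-0.11 to 0.31) and -0.11 relative to the TSC22D4 group (-0.32 to 0.10). For Il18bp these differences were 0.13 (-0.11 to 0.38), -0.06 (-0.30 to 0.19) and -0.19 (-0.43 to 0.06). For Il10ra they were 0.32 (-0.02 to 0.65), 0.13 (-0.21 to 0.47) and -0.19 (-0.53 to 0.15), and for Il4ra -0.02 (-0.17 to 0.14), -0.15 (-0.31 to 0.00) and -0.14 (-0.29 to 0.02). A gene called with 1 shRNA and not with another is therefore not shown to differ between them, and the intervals reach as far as 0.65 for Il10ra. The interaction of Il15 was 0.54 (adjusted p = 0.251) and that of Il33 -0.54 (adjusted p = 0.422): in both, the changes of the single shRNA groups did not add up in the combined group, but neither passed.

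Of 72 genes in 5 lists of signalling partners, 1 fell with the LCN13 shRNA (1.44% of all genes called), 2 with the TSC22D4 shRNA (1.17%) and 3 with both (1.34%), and 0 rose in any of these comparisons. The count of 1 of 72 lies near the share of all genes, and the other counts are given with no test of the lists. Among 10 JAK and STAT genes Stat2 alone was called against control, a STAT protein that serves interferon receptors rather than most interleukin receptors. It read 10.98, 11.21 and 10.80 in controls, 9.33, 9.45 and 9.28 with the LCN13 shRNA, 9.32, 9.28 and 9.49 with the TSC22D4 shRNA, and 9.29, 9.14 and 9.05 with both. The shRNA groups lay close together and far below control, at changes of -1.64 (SE 0.10), -1.63 and -1.84, and each call held in all 12 fits without 1 array. Among 10 inflammasome genes Casp4, the mouse caspase-11 gene of the non-canonical pathway that releases IL-1 family cytokines, fell by 0.53 with both shRNAs (adjusted p = 0.012) and by 0.41 with the TSC22D4 shRNA (adjusted p = 0.0474), with -0.37 for the LCN13 shRNA (adjusted p = 0.067). The call with both shRNAs did not hold without combined replicates 13 (0.0547) or 14 (0.0519), and the TSC22D4 call held only without TSC22D4 replicate 12 or combined replicates 13 or 16, with adjusted p otherwise between 0.0596 and 0.15. Among 20 genes of the IL-1 and Toll-like receptor adaptor pathway Nfkbiz, an NF-kB cofactor induced by IL-1, fell by 0.29 with both shRNAs (adjusted p = 0.0261), a call that did not hold without any 1 control array or any 1 combined array (0.0513 to 0.116). Its change of -0.24 with the TSC22D4 shRNA (adjusted p = 0.0704) passed without TSC22D4 replicate 12 (-0.30, adjusted p = 0.0197). None of 14 feedback inhibitors (0 of 14 by limma, with 4, 2 and 3 at an unadjusted p under 0.05) and none of 18 cytokines and receptors that share chains with interleukins (0 of 18, with 3 at an unadjusted p under 0.05 in each comparison with control) passed. Over all 23185 genes, 2911, 2739 and 2548 had an unadjusted p under 0.05 with the LCN13 shRNA, the TSC22D4 shRNA and both against control. The list medians lay between -0.09 and 0.02 in these comparisons.

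The interferon response was also lower in every shRNA group than in control. The 4 interleukin genes were called by tests open to either direction, and most genes called against control also fell. A link between their falls and the interferon response was not tested. A list of 17 interferon-induced genes, Stat2 among them, averaged 1.26 to 1.64 above its 12-array mean in controls, -0.46 to -0.33 with the LCN13 shRNA, -0.47 to -0.29 with the TSC22D4 shRNA and -0.67 to -0.58 with both. Of these 17 genes 14, 15 and 15 fell and 0 rose, and 11 lay above the array median on all 12 arrays. Il15 and Il18bp are known from other work as genes that interferons can induce. Whether the interferon response has a part in their values was not tested. Red blood cell markers, 4 genes, also varied widely: 0.33, -0.60 and -1.33 in controls and 0.77 to 1.20 with both shRNAs. They averaged -1.03, -1.04 and 0.56 with the LCN13 shRNA, and 0.45, -0.10 and -0.19 with the TSC22D4 shRNA. Against control limma called 0 of 4, and all 4 of them had an unadjusted p under 0.05 with both shRNAs. Adipocyte markers stayed between -0.06 and 0.04 on all 12 arrays.

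**Figure D4:**
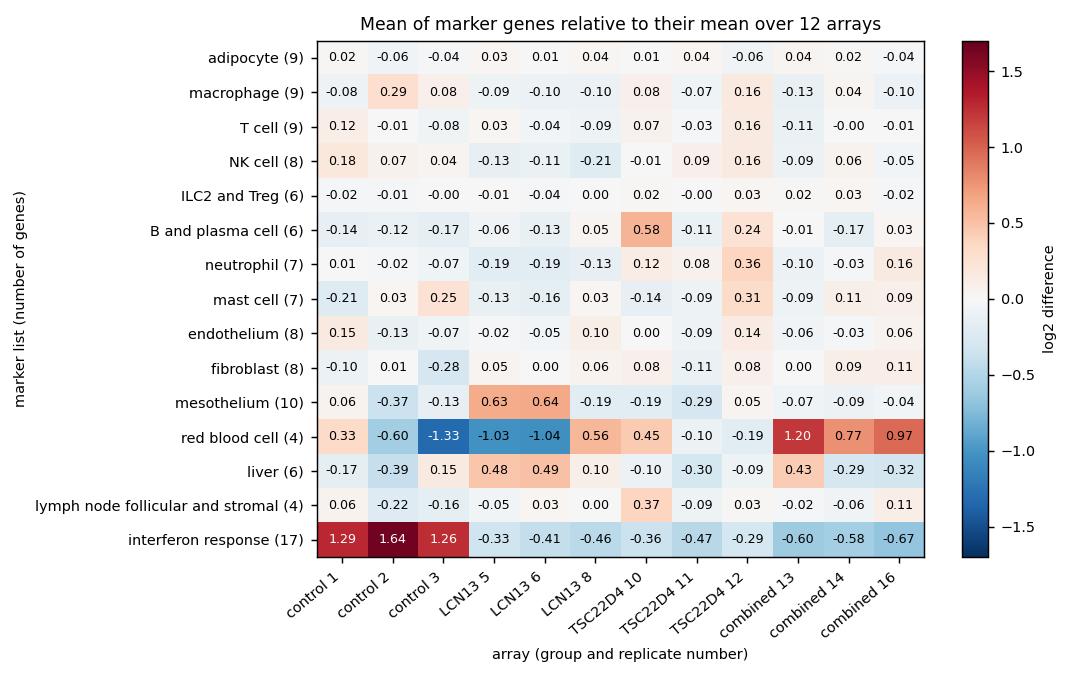
Mean log2 value of each marker list (rows, with its number of genes) on each array (columns, group and replicate number) relative to its mean over 12 arrays, written in each cell and coloured from blue (lower) to red (higher). The interferon response stands at 1.26 to 1.64 in the 3 controls and below 0 on the other 9 arrays, whereas the macrophage list stays between -0.13 and 0.29.

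Promoter sequences were examined because 4 members fell together and interleukin genes are often controlled through STAT, interferon regulatory factor and NF-kB sites. RefSeq promoters of the mouse assembly GRCm38.p6, 250 bases before to 50 bases after each start, were matched by gene identifier. This gave 75 promoters for 62 of the 79 genes. Of the 4 genes that fell, Il18bp and Il4ra were matched, and Il15 and Il10ra were not. The sequences below, in lower case throughout because neither holds any of the 3 motifs searched, are given 5′ to 3′ on the strand of the gene: Il18bp on the minus strand at chr7:102018183-102018482 and Il4ra on the plus strand at chr7:125552021-125552320.
Il18bp: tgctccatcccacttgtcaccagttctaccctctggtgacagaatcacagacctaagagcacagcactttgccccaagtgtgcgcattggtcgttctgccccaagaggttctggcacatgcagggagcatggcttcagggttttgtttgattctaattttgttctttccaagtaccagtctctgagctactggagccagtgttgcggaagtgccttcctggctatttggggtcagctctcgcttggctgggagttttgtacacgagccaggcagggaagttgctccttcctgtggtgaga
Il4ra: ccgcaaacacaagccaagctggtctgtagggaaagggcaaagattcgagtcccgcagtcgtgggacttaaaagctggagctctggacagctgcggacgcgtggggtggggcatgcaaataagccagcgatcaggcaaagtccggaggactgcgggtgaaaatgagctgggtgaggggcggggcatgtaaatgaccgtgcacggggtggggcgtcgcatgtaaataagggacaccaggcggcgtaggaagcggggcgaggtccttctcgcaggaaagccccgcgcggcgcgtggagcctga

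Both strands of all promoters were searched for 3 motifs. The core of the interferon stimulated response element (GAAA, any 2 bases, and GAAA again) was present in 3 of the 75 member promoters (4%) and in 3.44% of all 32851 promoters of the table. The gamma activated site to which STAT dimers bind, TTCNNNGAA, was present in 11 (14.7%) and in 8.3% of all. The NF-kB site of the immunoglobulin kappa enhancer was present in 0 of 75 and in 0.155% of all. The 3 members with the interferon element core were Il19, Il4 and Il1rap, shown here for comparison with the 2 promoters above, with the core in capitals. These windows lie at chr1:130940203-130940232 (minus strand), chr11:53618836-53618865 (minus strand, with the core read on the opposite strand) and chr16:26581715-26581744 (plus strand), and no core overlaps a gamma activated site.
Il19: aaacaattaaGAAAATGAAAtactaaagaa
Il4: gggaggggtgTTTCATTTTCcaattggtct
Il1rap: tccggaggggGAAAAAGAAAgtgcggcgga

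None of these 3 genes was called. Il19 and Il4, at -0.45 and -0.47 relative to the array median, lay below it on all 12 arrays, and Il1rap at 0.33 lay above it on all 12. Their changes over the 3 shRNA groups were -0.03, 0.01 and -0.08. A match in these letters is a description of the window and not a bound site, and a missing match says only that the letters are not in these 300 bases.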

How the data were processed

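Fat RNA of 12 mice was measured on Affymetrix arrays, 3 arrays in each of 4 groups taken from the sample labels. The authors deposited 1 log2 value per probe set and array, made with RMA per the submitters' processing notes. RMA corrects background, brings all arrays to a common distribution and summarises the probes of each probe set, which removes changes shared by most genes and compresses differences at the lower end. The version and settings of RMA, the genome build and the assignment of probes are not given in these sources. The table holds 25206 probe sets: 23185 have 1 gene symbol, none (0) has several and 2021 lack a symbol. All those with a symbol were tested and no dim ones were removed. The number of arrays limits the precision.

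Linear models were fitted with limma 3.58.1 (R 4.3.3, eBayes at its defaults), checked on simulated data, over all 12 arrays with 1 mean per group. These share a spread per gene, with 8 residual and 1.38 prior degrees of freedom and a median residual SD of 0.0647. The 9 tests were the 6 pairwise comparisons, the mean of the shRNA groups against control, the interaction and a moderated F test. A gene was called where the two-sided p, adjusted by Benjamini-Hochberg over all genes of the comparison, was under 0.05. Alternatives were array weights, eBayes with trend and robust settings, a filter on dim probe sets, all probe sets of the table, the 6 arrays of a comparison alone, and leaving out arrays. Promoter sequences are from RefSeq, GRCm38.p6.

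The members and all gene lists were chosen with earlier results of these data known. The 30 named members are those called in any test, the 3 with the largest change in each direction in each comparison with control, the 5 farthest above the array median, and a fixed set of known genes. Signalling partners are named where called against control.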

Additional observations from a re-analysis of the deposited data

Results flagged for a closer look

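Among the signalling partners Stat2 drew attention because the change with 1 shRNA differed with the other present, by limma's test of the interaction. The TSC22D4 change with the LCN13 shRNA minus that without it was 1.44 on the log2 scale (SE 0.15, adjusted p = 0.00337). Each single shRNA group lay about as far below control (-1.64 and -1.63) as the combined group (-1.84), so the single changes did not add up. The 3 control arrays, at 10.98, 11.21 and 10.80, stand alone against 9.05 to 9.49 on the other 9. Their mean enters the difference through the TSC22D4 change without the LCN13 shRNA, and the change between the LCN13 and combined groups was -0.19 (adjusted p = 0.548). They are also the arrays that received only control virus.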

How the results depend on the processing

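Of 132 changes of named genes against control, 31 (in 17 genes) took the other sign under at least 1 alternative. None of them was called as reported or under the alternative, and none exceeded 0.11 in size as reported. On the other side of 0 the largest values were 0.36 for Il20rb and -0.23 for Il16 with the LCN13 shRNA, both without LCN13 replicates 5 and 6 together, 0.11 for Il13ra1 and -0.13 for Il7r with the TSC22D4 shRNA, and -0.14 for Il13ra1 and -0.14 for Il7r over the 3 groups. Of 2315 values under an alternative, 2122 kept their direction and their side of the threshold or moved less than the spread, 59 changed sign, 103 lost a call, 23 gained one and 8 moved by more than the spread between replicates. With array weights the members called numbered 5 with the LCN13 shRNA (of 680 genes called in all), 2 with the TSC22D4 shRNA (of 447), 6 for TSC22D4 against LCN13 (of 1178) and 5 in the F test (of 935), against 3 of 333, 0 of 272, 0 of 239 and 1 of 374. The additional ones with the LCN13 shRNA were Il10, lower, and Il17rb, higher. With trend and robust settings there was 1 with the TSC22D4 shRNA (of 326), 1 for TSC22D4 against LCN13 (of 222) and 3 in the F test (of 426). With the filter on dim probe sets, which left 29 members, there was 1 (of 334), 1 (of 300) and 3 (of 500). With only the 6 arrays of a comparison, 0 members passed with the LCN13 shRNA (of 102) and 0 with both (of 126). Without LCN13 replicates 5 and 6 together, 0 passed with the LCN13 shRNA (of 100), 1 with the TSC22D4 shRNA (of 282) and 0 in the F test (of 171). Leaving out each array in turn gave 1 to 3 members with the LCN13 shRNA (205 to 426 genes in all), 0 to 1 with the TSC22D4 shRNA (153 to 350), 0 to 3 with both (165 to 376), 1 to 3 over the 3 groups (233 to 420), 0 to 2 for TSC22D4 against LCN13 (2 to 582) and 0 to 2 in the F test (209 to 531). The combined count reached 0 without control replicate 2, combined replicate 13 or combined replicate 14, and that over the 3 groups reached 1 without control replicate 2. The fits with fewer arrays have fewer degrees of freedom, and the cause of the other differences was not tested. No paired analysis was possible because the groups share no replicate numbers.

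The 3 arrays per group limit what can be called. Borderline cases such as Il10ra and Il4ra change sides with the array left out. For genes near the lower end of the scale, such as Il6, the normalization and the probes' background leave differences that cannot be told from none.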
